A study of Mus musculus with 15 samples.

Results

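The comparison asks whether the effect of particle habit on macrophage gene expression differed between riebeckite and tremolite, a pair of amphibole minerals that each occur as asbestos, made of thin flexible fibres, and as non-asbestiform cleavage fragments. For each gene the habit effect was the mean log2(FPKM + 1) after asbestos minus that after fragments of the same mineral, and the interaction was the riebeckite habit effect minus the tremolite habit effect. A positive interaction therefore means a more positive habit effect in riebeckite. The 4 particle groups were chosen by their labels and hold 12 of the 15 libraries of the series, 3 in each group, and 10616 of 10653 genes passed the filter on low values, at least 0.5 FPKM (fragments per kilobase, scaled to the mapped fragments of the library) in at least 3 libraries. The cells were MPI cells, self-renewing mouse macrophages of C57BL6/J fetal liver origin, labelled female and grown in GM-CSF, which serve as a model of alveolar macrophages. They were exposed for 24 h to riebeckite asbestos at 9 µg/cm², riebeckite cleavage fragments at 40 µg/cm², tremolite asbestos at 5 µg/cm² or tremolite cleavage fragments at 60 µg/cm², or received no particles. These doses were set to equal particle surface area, so fragments outweighed asbestos 4.44 times in riebeckite and 12 times in tremolite, and an effect of habit cannot be told apart from one of mass dose. All groups share the cell line and the growth factor, and 1 cell line stands for macrophages throughout.

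Alveolar macrophages take up inhaled particles, and fibres too long to be engulfed are known to keep them activated. NF-kB is a transcription factor held in the cytoplasm by inhibitors of the IkB family. Its activation induces cytokines such as Tnf and Il1b, adhesion molecules such as Icam1, and the inhibitors themselves, which shut the pathway down again. Macrophages also shape the matrix around them through secreted proteins such as activin A, transglutaminase and the TGF-beta-induced protein Tgfbi, and they hold their alveolar identity under GM-CSF.

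The FPKM of a library summed to 257329 to 273570, and how many reads stand behind them is unknown. Whether the 3 libraries within each group are independent cultures is not given in the labels, and p-values therefore measure the spread between libraries only, which may be technical. All 10 general macrophage markers and all 12 alveolar macrophage markers looked for were in the deposited table, whereas 0 of 8 lymphocyte, 0 of 6 hepatocyte and 0 of 6 mast cell and basophil markers, 1 of 6 erythroid (Epor), 1 of 7 dendritic cell (Clec9a) and 1 of 12 stromal, epithelial and endothelial markers (Cdh1) and 3 of 11 neutrophil markers (Mmp8, Cxcr2 and S100a8) were. The summed FPKM of the 3 neutrophil markers was 70.1 to 72.6 after riebeckite asbestos and 72.8 to 76.0 after riebeckite fragments, and 38.7 to 48.0 after tremolite asbestos and 41.8 to 45.0 after tremolite fragments, against 30.8 to 35.1 in untreated cells. The sum is mostly S100a8, which averaged 56.7 ± 2.16 FPKM after riebeckite asbestos and 51.6 ± 0.9196 after riebeckite fragments, and in tremolite 35.3 ± 5.39 after asbestos and 28.1 ± 1.53 after fragments. The other 2, Mmp8 and Cxcr2, were lower after asbestos than after fragments in both minerals (limma, adjusted p = 0.0007 and 0.0141 in riebeckite and 0.00064 and 0.00322 in tremolite). Mmp8 averaged 1.56 ± 0.335 FPKM after riebeckite asbestos and 4.01 ± 0.09798 after riebeckite fragments, and in tremolite 1.71 ± 0.186 after asbestos and 5.34 ± 0.183 after fragments, against 1.98 ± 0.634 in untreated cells (SD, n = 3 each). Cxcr2 averaged 13.5 ± 0.903 FPKM after riebeckite asbestos and 19.01 ± 2.25 after riebeckite fragments, and in tremolite 5.49 ± 0.807 after asbestos and 10.2 ± 1.16 after fragments, against 2.51 ± 0.0906 in untreated cells. The interaction was called for 0 of the 3 (1 above and 0 below at an unadjusted p under 0.05; limma). The part of these markers in the results below was not tested. The summed FPKM of 40 interferon-stimulated genes differed widely within groups, from 397.6 to 875 after riebeckite asbestos, 387 to 736 after riebeckite fragments, 862 to 1124 after tremolite asbestos and 573 to 680.2 after tremolite fragments, against 543 to 570 in untreated cells.

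The habit effect differed between the minerals in 417 genes, 3.93% of those tested, with an interaction above 0 in 281 (2.65%) and below 0 in 136 (1.28%; limma, adjusted p under 0.05). Most differences were small: the median absolute interaction among the called genes was 0.354 on the log2 scale, 90 genes reached 0.5 and 4 reached 1. Asbestos and fragments differed in 1121 genes in riebeckite (10.6%; 712 higher after asbestos, 6.71%, and 409 lower, 3.85%) and in 100 genes in tremolite (0.942%; 41 higher, 0.386%, and 59 lower, 0.556%). A gene that passed in riebeckite and missed in tremolite was not thereby shown to differ, since 762 of 1084 such genes had no called interaction. In 353 of the 417 genes the estimated habit effects of both minerals had opposite signs. Choosing genes by the difference of both effects favours opposite signs, here and in the classes below. The share of opposite signs over all tested genes was not counted. Across all 10616 genes the habit effects of both minerals, which come from separate libraries, had a Pearson r of 0.116 and a Spearman correlation of 0.0587. The split by direction moved with the scaling of the libraries: 67.4% of called interactions were above 0 as deposited, against 50.3% after TMM rescaling (197 above and 195 below) and 54.4% after quantile normalization (202 above and 169 below). The count fell to 216 without riebeckite asbestos library 1 (140 above and 76 below), 217 without riebeckite fragment library 2 (143 and 74), 267 without tremolite asbestos library 1 (193 and 74), 214 without tremolite asbestos library 3 (141 and 73), 242 without tremolite fragment library 1 (172 and 70) and 210 without tremolite fragment library 2 (136 and 74). In riebeckite the habit count fell to 644 without asbestos library 1, 730 without asbestos library 2 and 665 without fragment library 2. In tremolite it fell to 45 and 39 without asbestos libraries 1 and 3, and to 31, 43 and 61 without fragment libraries 1, 2 and 3.

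**Figure D1:**
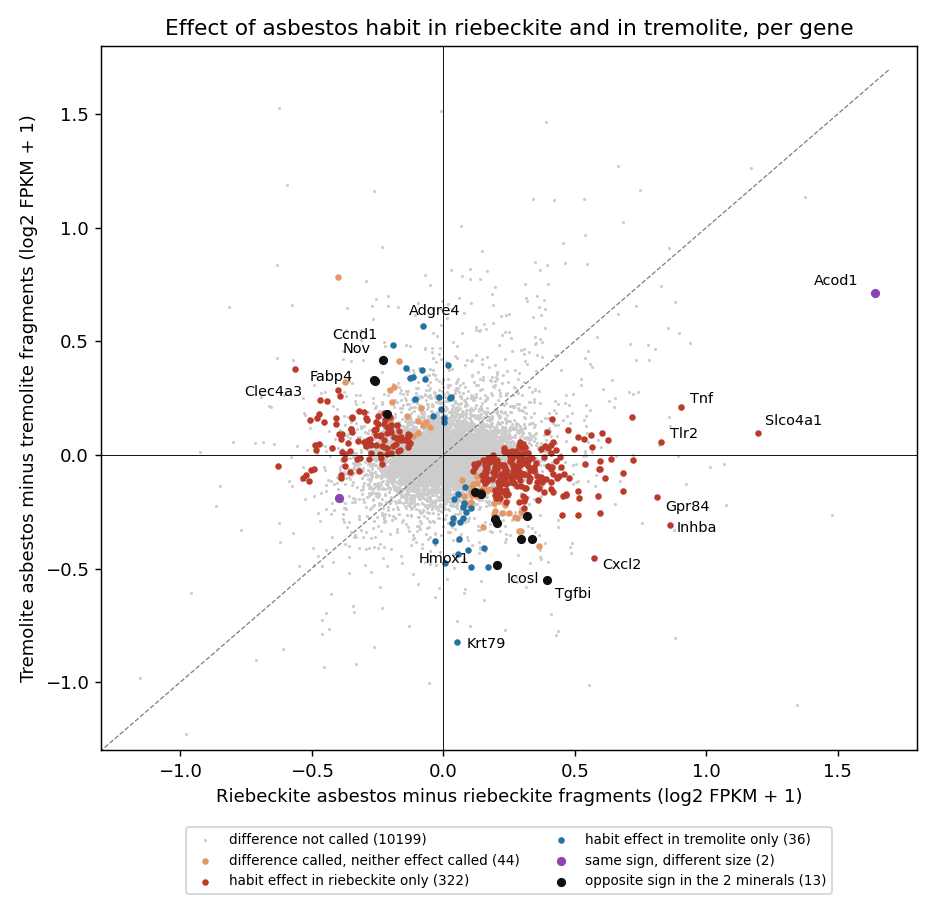
Habit effect of each tested gene in riebeckite (horizontal axis) and in tremolite (vertical axis), both as asbestos minus fragments in log2(FPKM + 1), coloured by the kind of difference between minerals. Of the 322 genes with a habit effect in riebeckite only 320 have the larger estimate in riebeckite, and the 36 with one in tremolite only have it in tremolite. The 13 of opposite sign lie to the upper left and lower right of the origin, as do 266 of the 322, and 7 genes lie outside the plotted range.

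Both habit effects were called in 37 genes, with the same sign in 24 and opposite signs in 13. In the 13 genes of opposite sign, 0.122% of those tested, the interaction passed the threshold as well. In 9 of them asbestos was above fragments in riebeckite and below them in tremolite, and these include the secreted matrix protein Tgfbi and the T-cell costimulatory ligand Icosl. In 4 the directions were the reverse, among them the matricellular protein Nov, also called CCN3, and the fatty acid carrier Fabp4 of alveolar macrophages. Cyb561a3, Angptl4 and Sephs2 were named after their values were seen. Without single libraries the count fell to 7 (riebeckite asbestos 1 or 3, or riebeckite fragments 1), 8 (riebeckite fragments 2), 5 (tremolite asbestos 1), 4 (tremolite fragments 1) or 3 (tremolite asbestos 3 or tremolite fragments 2).

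Tgfbi (ENSMUSG00000035493.10, chromosome 13, 56609523 to 56639562, GRCm38) encodes a secreted matrix protein induced by TGF-beta. It was at 5.52, 6.35 and 5.22 FPKM after riebeckite asbestos and at 4.02, 4.04 and 4.16 FPKM after riebeckite fragments. After tremolite asbestos it was at 12.1, 12.7 and 10.97 FPKM, against 17.6, 16.99 and 19.2 FPKM after tremolite fragments, and untreated cells had 3.69, 3.599 and 3.81 FPKM. The libraries of asbestos and fragments did not overlap in either mineral, with all asbestos values the higher ones in riebeckite and the lower ones in tremolite, and every tremolite library lay above every riebeckite library. Lack of overlap for a called habit effect was a condition for naming genes by size, here and below. It therefore adds no support, and its share over all tested genes was not counted. The habit effect was 0.40 in riebeckite and -0.55 in tremolite, and the interaction was 0.95 (SE 0.09495, 95% confidence interval 0.74 to 1.15; limma, adjusted p = 0.000708). Icosl (ENSMUSG00000000732.9, chromosome 10, 78069302 to 78083913) was at 10.7, 9.72 and 10.8 FPKM after riebeckite asbestos and 9.46, 8.31 and 8.94 FPKM after riebeckite fragments. It was at 6.97, 7.19 and 7.43 FPKM after tremolite asbestos and 10.2, 10.2 and 10.96 FPKM after tremolite fragments, against 2.99, 2.93 and 3.21 FPKM in untreated cells. Riebeckite asbestos and tremolite fragments gave overlapping levels, the highest of the 5 groups, and the interaction was 0.69 (SE 0.0774). Its adjusted p was under 0.05 in 25 of 26 alternative settings (limma, highest 0.214). Arap3, a GTPase-activating protein of the Arf pathway, averaged 15.7 ± 0.734 FPKM after riebeckite asbestos and 12.2 ± 0.63 after riebeckite fragments, and in tremolite 5.96 ± 0.468 after asbestos and 7.98 ± 0.674 after fragments, against 2.19 ± 0.197 in untreated cells (mean ± SD here and below, n = 3 each; interaction 0.71). Interactions were smaller for the ubiquitin ligase subunit Fbxo32 (0.59), the chromatin protein Hmg20b (0.50), the lysosomal ferrireductase Cyb561a3 (0.48), the lipoprotein lipase inhibitor Angptl4 (0.31) and the selenophosphate synthetase Sephs2 (0.29). Angptl4 turned to -0.28 when its level was taken as the sum of its transcripts. For Hmg20b the adjusted p was under 0.05 in 25 of 26 settings (limma, highest 0.293).

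Nov (ENSMUSG00000037362.8, chromosome 15, 54745702 to 54754039) was at 60.6, 59.8 and 56.5 FPKM after riebeckite asbestos and 69.8, 68.4 and 69.8 FPKM after riebeckite fragments. After tremolite asbestos the levels were 109.7, 97.1 and 102 FPKM and after tremolite fragments 77.4, 76.3 and 76.8 FPKM, against 206, 199.8 and 194 FPKM in untreated cells. Every particle library lay below every untreated one, with the lowest levels after riebeckite asbestos and those nearest to untreated cells after tremolite asbestos. The habit effect was -0.23 in riebeckite and 0.42 in tremolite, and the interaction was -0.65 (SE 0.0579, 95% confidence interval -0.77 to -0.52; limma, adjusted p = 0.000329). Fabp4 (ENSMUSG00000062515.3, chromosome 3, 10204088 to 10208576) had 32.8, 34.9 and 32.6 FPKM after riebeckite asbestos and 43.5, 38.4 and 38.9 FPKM after riebeckite fragments. In tremolite it had 60.7, 56.1 and 65.3 FPKM after asbestos and 46.1, 46.8 and 52.03 FPKM after fragments, against 97.4, 93.8 and 95.8 FPKM in untreated cells. Its order of groups was that of Nov, with no overlap between asbestos and fragments in either mineral (interaction -0.58, SE 0.0886, adjusted p = 0.00461 by limma). In this bulk RNA, fewer cells with a transcript and less of it per cell cannot be told apart. Serp1, a membrane protein of the endoplasmic reticulum, averaged 36.96 ± 1.49 FPKM after riebeckite asbestos and 43.01 ± 1.198 after riebeckite fragments, and in tremolite 50.1 ± 1.45 after asbestos and 44.2 ± 1.44 after fragments, against 71.6 ± 0.546 in untreated cells (SD, n = 3 each; interaction -0.39).

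**Figure D2:**
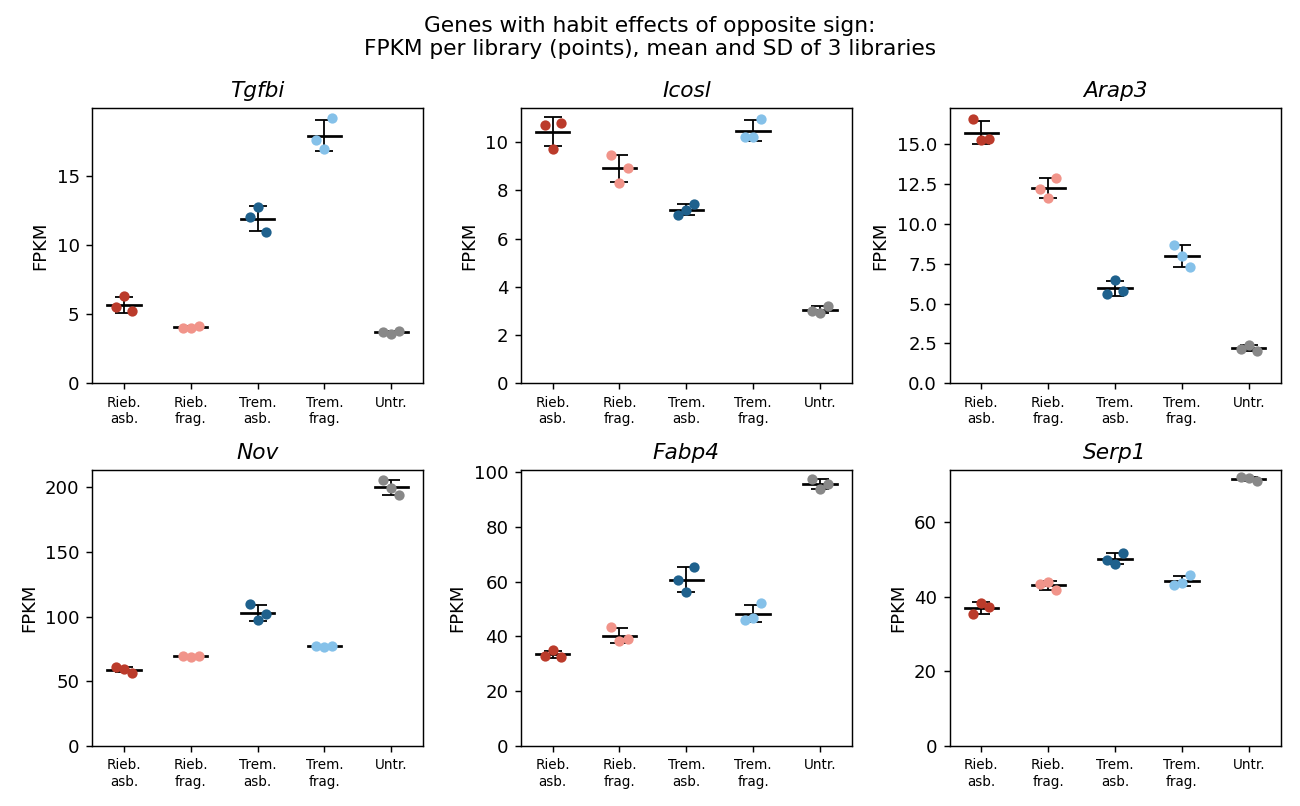
FPKM of 6 genes with habit effects of opposite sign, with 1 point per library and the mean and SD of the 3 libraries of each group; asb. and frag. stand for asbestos and cleavage fragments. In the upper row riebeckite asbestos lies above riebeckite fragments while tremolite asbestos lies below tremolite fragments, and in the lower row both orders are turned round.

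A habit effect in riebeckite only, meaning a called interaction with the riebeckite effect called and the tremolite effect not called, was found in 322 genes (3.03%), 222 with an interaction above 0 and 100 below. In 266 of them the tremolite estimate had the sign opposite to that in riebeckite, and 88 of these passed an unadjusted p under 0.05, so "only" describes the threshold and not the lack of an effect in tremolite; 231 of the 322 missed that unadjusted threshold in tremolite. The class held 160 genes without riebeckite asbestos library 1, 165 without riebeckite fragment library 2, 181 without tremolite asbestos library 3, and 204 and 174 without tremolite fragment libraries 1 and 2.

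NF-kB regulators made up the function list with the largest share above 0: of 26 measured members 10 had an interaction above 0 and 0 below (16 and 1 at an unadjusted p under 0.05), where 2.65% and 1.28% of all tested genes did. The called members were the subunits Rela and Nfkb2, the IkB inhibitors Nfkbia, Nfkbib and Nfkbie, the atypical IkB protein Nfkbiz, the IkB kinase Ikbke, and the target genes Icam1, Sod2 and Zc3h12a, the last a nuclease that degrades cytokine mRNAs. All 10 were in the riebeckite-only class. In riebeckite 16 of the 26 were higher after asbestos and 1, Map3k8, lower, and in tremolite 0 were called in either direction by limma (1 higher and 1 lower at an unadjusted p under 0.05). Among all tested genes 6.71% were higher and 3.85% lower in riebeckite, and 0.386% higher and 0.556% lower in tremolite. The list's median habit effect was 0.29 in riebeckite and -0.02 in tremolite and its median interaction 0.32, beside medians over all tested genes of 0.0222, -0.0113 and 0.0336. Only an added requirement of an absolute interaction of 0.5 brought the count of 10 down by more than 1.5 times, to 3.

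Nfkbia (ENSMUSG00000021025.8, chromosome 12, 55489410 to 55492647), the gene of IkB-alpha, was at 61.9, 53.6 and 51.9 FPKM after riebeckite asbestos and 41.2, 31.1 and 31.2 FPKM after riebeckite fragments. Its levels were 44.5, 44.02 and 43.04 FPKM after tremolite asbestos and 43.8, 49.1 and 46.4 FPKM after tremolite fragments, against 25.3, 26.2 and 29.97 FPKM in untreated cells. Riebeckite asbestos was the highest group and riebeckite fragments the lowest of the 4 particle groups, while asbestos and fragments overlapped in tremolite (habit effects 0.69 and -0.08 in riebeckite and tremolite, interaction 0.76, SE 0.141, adjusted p = 0.0116 by limma). Nfkb2 (ENSMUSG00000025225.14, chromosome 19, 46304737 to 46312090) followed the same order, with 28.5, 28.1 and 26.3 FPKM after riebeckite asbestos and 20.97, 19.3 and 19.9 FPKM after riebeckite fragments. After tremolite asbestos it had 23.4, 22.3 and 21.7 FPKM and after tremolite fragments 22.7, 23.5 and 21.6 FPKM, against 15.1, 15.1 and 15.98 FPKM in untreated cells. Both tremolite groups lay between the riebeckite groups (interaction 0.45, SE 0.0643, adjusted p = 0.0033 by limma). Icam1, the adhesion molecule bound by leukocyte integrins, averaged 29.5 ± 2.54 FPKM after riebeckite asbestos and 21.3 ± 0.887 after riebeckite fragments, and in tremolite 24.96 ± 0.923 after asbestos and 25.9 ± 0.561 after fragments, against 17.3 ± 0.405 in untreated cells (SD, n = 3 each; interaction 0.50). Interactions of the other called members were 0.56 for Nfkbie, 0.50 for Nfkbib, 0.42 for Nfkbiz, 0.36 for Sod2, 0.34 for Zc3h12a, 0.29 for Rela and 0.19 for Ikbke. The feedback inhibitor Tnfaip3, also called A20, had a similar estimate that was not called (0.53, SE 0.283; limma, adjusted p = 0.344), with asbestos and fragments at 6.58 ± 1.76 and 4.12 ± 0.491 FPKM in riebeckite and 4.88 ± 1.15 and 4.87 ± 1.27 FPKM in tremolite.

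Because these genes moved together, the promoters of the NF-kB list were searched for the motif GGGNNTTNCC on both strands, in the 300 bases from 250 before to 50 after the RefSeq start of each gene (GRCm38.p6). The motif occurred in 525 of 8373 tested genes with a promoter sequence (6.27%), in 20 of 219 with an interaction above 0 (9.13%), in 6 of 98 with one below 0 (6.12%) and in 0 of 6 of opposite sign. In the NF-kB list it occurred in 11 of 21 members (52.4%), which were 2 of 9 with a called interaction, Nfkb2 and Nfkbia, and 9 of 12 without one. A match is a description of these letters and not of binding. The promoters of Nfkbia, of the chemokine gene Cxcl2 and of the receptor gene Tlr2, which hold the motif and belong to the riebeckite-only class, are shown with that of Tgfbi, which leads the genes of opposite sign and holds no match in this window. Sequences run 5′ to 3′ on the strand of the gene with the motif in capitals.
Nfkbia (chr12:55492598-55492897, minus strand): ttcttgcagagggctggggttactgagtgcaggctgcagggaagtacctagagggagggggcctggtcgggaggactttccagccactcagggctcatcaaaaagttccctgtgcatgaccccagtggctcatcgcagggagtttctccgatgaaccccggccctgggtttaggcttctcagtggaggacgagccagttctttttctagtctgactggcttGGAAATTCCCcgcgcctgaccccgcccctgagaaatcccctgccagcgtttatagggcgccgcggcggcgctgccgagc
Cxcl2 (chr5:90903649-90903948, plus strand): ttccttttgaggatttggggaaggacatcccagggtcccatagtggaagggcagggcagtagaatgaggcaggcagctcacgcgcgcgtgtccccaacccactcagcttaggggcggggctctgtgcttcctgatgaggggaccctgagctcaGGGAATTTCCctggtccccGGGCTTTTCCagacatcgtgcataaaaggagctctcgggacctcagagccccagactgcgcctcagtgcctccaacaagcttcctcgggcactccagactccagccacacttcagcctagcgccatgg
Tlr2 (chr3:83841559-83841858, minus strand): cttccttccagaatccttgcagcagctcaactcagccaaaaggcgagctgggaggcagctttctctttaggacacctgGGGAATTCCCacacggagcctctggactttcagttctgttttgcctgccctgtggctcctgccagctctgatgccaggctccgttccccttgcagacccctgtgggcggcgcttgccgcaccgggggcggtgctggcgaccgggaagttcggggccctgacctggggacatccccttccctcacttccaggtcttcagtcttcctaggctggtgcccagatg
Tgfbi (chr13:56609336-56609635, plus strand): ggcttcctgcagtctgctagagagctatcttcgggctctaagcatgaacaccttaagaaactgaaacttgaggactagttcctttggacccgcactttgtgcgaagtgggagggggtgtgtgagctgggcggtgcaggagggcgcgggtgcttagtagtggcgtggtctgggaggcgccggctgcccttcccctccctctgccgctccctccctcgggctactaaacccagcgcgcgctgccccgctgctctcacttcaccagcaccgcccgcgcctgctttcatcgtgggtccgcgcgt

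Inflammatory cytokines and chemokines had an interaction above 0 in 6 of 20 measured members, Tnf, Il1a, Il1b, Osm, Cxcl2 and Ccl3, and below 0 in 1, Il18 (-0.30; 7 and 3 at an unadjusted p under 0.05; limma). Neither habit effect of Osm was called, and the other 6 were called in riebeckite only. In riebeckite 7 members were higher and 2 lower after asbestos, and in tremolite 0 were called by limma (1 higher and 4 lower at an unadjusted p under 0.05). Among all tested genes 6.71% were higher and 3.85% lower in riebeckite, and 0.386% and 0.556% in tremolite. The 0 in tremolite is thus near the share over all genes. The interaction was above 0 in 2.65% of all tested genes and below 0 in 1.28%. The count of 6 fell to 3 without riebeckite asbestos library 1, tremolite asbestos library 1 or 3 or tremolite fragment library 2, and to 3 with sums of transcripts. The count of 1 below fell to 0 without riebeckite asbestos library 1, riebeckite fragment library 1 or 2, tremolite asbestos library 1 or 3 or any tremolite fragment library. Cxcl2 (ENSMUSG00000058427.10, chromosome 5, 90903871 to 90905938), which attracts neutrophils and whose promoter is given above, was at 5.51, 4.196 and 2.98 FPKM after riebeckite asbestos and 2.72, 2.64 and 2.02 FPKM after riebeckite fragments. In tremolite it was at 4.78, 4.46 and 4.26 FPKM after asbestos and 6.04, 6.93 and 6.62 FPKM after fragments, against 1.48, 1.57 and 1.91 FPKM in untreated cells. Tremolite fragments gave its highest levels, and asbestos and fragments did not overlap in either mineral, with opposite orders (habit effects 0.57 in riebeckite and -0.45 in tremolite, adjusted p = 0.206 for the second by limma). Its interaction was 1.03 (SE 0.201; limma, adjusted p = 0.0158). Tnf (ENSMUSG00000024401.14, chromosome 17, 35199381 to 35202007) had 19.7, 17.9 and 14.9 FPKM after riebeckite asbestos and 9.005, 10.3 and 7.38 FPKM after riebeckite fragments. Its levels were 16.4, 16.03 and 16.5 FPKM after tremolite asbestos and 12.4, 14.96 and 14.6 FPKM after tremolite fragments, against 6.19, 7.64 and 7.79 FPKM in untreated cells. Asbestos lay above fragments without overlap in both minerals, by 0.90 in riebeckite and 0.21 in tremolite (limma, adjusted p = 0.000645 and 0.578). The interaction of 0.69 (SE 0.168; limma, adjusted p = 0.0392) passed in 12 of 26 alternative settings. Counts of settings here and below go by the adjusted p alone, so the required absolute interaction of 0.5 removes no call in them. Il1b (ENSMUSG00000027398.13, chromosome 2, 129364570 to 129371139) averaged 42.2 ± 3.81 FPKM after riebeckite asbestos and 25.2 ± 0.694 after riebeckite fragments, and in tremolite 25.4 ± 1.63 after asbestos and 22.5 ± 1.93 after fragments, against 10.9 ± 1.38 in untreated cells (SD, n = 3 each). Riebeckite asbestos stood apart from the other particle groups, with an interaction of 0.55 that passed in 18 of 26 settings. Il1a, its relative that is released from damaged cells, had 136 ± 4.08 FPKM after riebeckite asbestos, 109.6 ± 4.85 after riebeckite fragments, 108 ± 3.09 after tremolite asbestos and 109 ± 4.001 after tremolite fragments (interaction 0.32). Ccl3, a chemokine for monocytes, had 207 ± 7.67 FPKM after riebeckite asbestos, 145 ± 10.4 after riebeckite fragments, 169 ± 9.403 after tremolite asbestos and 160.0 ± 7.18 after tremolite fragments, against 175 ± 4.87 in untreated cells (interaction 0.43). Here the 3 untreated libraries were above the 3 riebeckite fragment libraries, so the untreated level lay between the riebeckite groups.

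Receptors that sense particles and microbes split in both directions. Among all tested genes the interaction was above 0 in 2.65% and below 0 in 1.28%. Tlr2 (ENSMUSG00000027995.10, chromosome 3, 83836272 to 83841767), the receptor for bacterial lipoproteins, was at 126, 113 and 107 FPKM after riebeckite asbestos and 67.4, 62.4 and 63.1 FPKM after riebeckite fragments. It was at 93.1, 92.6 and 94.8 FPKM after tremolite asbestos and 87.99, 90.4 and 91.2 FPKM after tremolite fragments, against 58.7, 64.5 and 67.98 FPKM in untreated cells. The riebeckite fragment libraries lay in the range of untreated cells while both tremolite groups lay above it (interaction 0.77, SE 0.0845, adjusted p = 0.00087 by limma). Cd14, its co-receptor, had an interaction of 0.65, and the Toll-like and Fc receptor list had 2 members above 0 and 3 below of 23, with Cd180, Tlr13 and Fcgrt below. The 2 became 1 without riebeckite fragment library 2 or tremolite asbestos library 3. Cd180, a Toll-like receptor relative that restrains Tlr4, averaged 6.69 ± 0.372 FPKM after riebeckite asbestos and 9.69 ± 0.995 after riebeckite fragments, and in tremolite 10.96 ± 0.0671 after asbestos and 9.55 ± 0.422 after fragments, against 15.4 ± 0.884 in untreated cells (SD, n = 3 each; interaction -0.65). Gpr84 (ENSMUSG00000063234.4, chromosome 15, 103308236 to 103310438), a receptor for medium-chain fatty acids, was at 12.7, 13.3 and 11.1 FPKM after riebeckite asbestos and 6.83, 6.47 and 6.47 FPKM after riebeckite fragments. In tremolite it was at 4.79, 5.55 and 4.22 FPKM after asbestos and 5.62, 6.16 and 5.13 FPKM after fragments, against 1.34, 1.39 and 1.37 FPKM in untreated cells. All riebeckite asbestos libraries were the highest of the series, and asbestos and fragments overlapped in tremolite (interaction 1.00, SE 0.119, adjusted p = 0.00115 by limma). Tnfrsf12a, the receptor for the cytokine TWEAK, and Fcrlb, an Fc receptor-like protein, had interactions of 0.85 and 0.84. Among scavenger and C-type lectin receptors 3 of 24 members were above 0 and 3 below. The mannose receptor Mrc1 was at 189 ± 7.003 FPKM after riebeckite asbestos and 237 ± 3.48 after riebeckite fragments, and in tremolite 266 ± 7.597 after asbestos and 254 ± 7.32 after fragments, against 329.5 ± 0.175 in untreated cells (interaction -0.39). The lectin receptor Clec4a3 had 6.01, 5.82 and 6.13 FPKM after riebeckite asbestos and 8.82, 8.77 and 8.43 FPKM after riebeckite fragments. It had 14.6, 12.4 and 16.9 FPKM after tremolite asbestos and 11.9, 12.3 and 12.2 FPKM after tremolite fragments, against 31.7, 33.5 and 31.8 FPKM in untreated cells. All particle libraries were below untreated ones, and riebeckite asbestos was the lowest (interaction -0.71, SE 0.109). The 3 scavenger members above 0, Colec12, Olr1 and Trem1, became 1 after TMM rescaling, in the fit of 12 libraries, or without riebeckite asbestos library 1 or 3, riebeckite fragment library 2, tremolite asbestos library 1 or 3 or tremolite fragment library 1 or 2.

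Matrix remodelling and fibrosis genes gave 5 of 20 members above 0, Inhba, Tgfbi, Tgm2 and Mmp19 among them, and 0 below (8 and 3 at an unadjusted p under 0.05; limma). In riebeckite 6 of the 20 were higher after asbestos and 5 lower, and in tremolite 1 was higher and 5 lower. Over all tested genes these shares were 6.71% and 3.85% in riebeckite and 0.386% and 0.556% in tremolite. For the interaction they were 2.65% above 0 and 1.28% below. The list's median habit effect was 0.01 in riebeckite and -0.15 in tremolite, and its median interaction 0.15. Inhba (ENSMUSG00000041324.14, chromosome 13, 16011851 to 16031621), which encodes the subunit of activin A, had the largest interaction above 0, with 31.7, 33.1 and 32.98 FPKM after riebeckite asbestos and 18.2, 16.99 and 17.4 FPKM after riebeckite fragments. Its levels were 13.8, 17.6 and 14.2 FPKM after tremolite asbestos and 19.8, 19.7 and 17.4 FPKM after tremolite fragments, against 2.09, 1.75 and 2.24 FPKM in untreated cells. Riebeckite asbestos lay far above the other 3 particle groups, which lay close to each other and above untreated cells. The habit effect was 0.86 in riebeckite and -0.31 in tremolite (adjusted p = 0.135), and the interaction was 1.17 (SE 0.119, 95% confidence interval 0.91 to 1.43; limma, adjusted p = 0.000708). Tgm2, the transglutaminase that cross-links matrix proteins, averaged 55.4 ± 2.67 FPKM after riebeckite asbestos and 38.5 ± 1.305 after riebeckite fragments, and in tremolite 33.2 ± 0.421 after asbestos and 37.3 ± 1.86 after fragments, against 14.1 ± 0.323 in untreated cells (SD, n = 3 each; interaction 0.67). The matrix metalloproteinase Mmp19 differed less (0.30). Matrix genes did not all behave in this way: the macrophage elastase Mmp12 was lower after asbestos in both minerals (habit effects -0.45 in riebeckite and -0.93 in tremolite), with an interaction that was not called (0.48; limma, adjusted p = 0.144). Among 39 adhesion and cytoskeleton entries 7 were above 0 and 1 below, with the integrin alpha chain Itga5 (0.36) and Pdpn, also called podoplanin (0.72), above 0 and the integrin alpha chain Itga4 (-0.46) below. The 1 became 0 without riebeckite asbestos library 1, riebeckite fragment library 2, tremolite asbestos library 3 or tremolite fragment library 1 or 2. The 7 became 4 without riebeckite fragment library 2, tremolite asbestos library 1 or 3 or tremolite fragment library 2.

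Of 31 genes of GM-CSF and cytokine signalling, on which this cell line depends for growth, 3 had an interaction above 0 and 0 below (9 and 2 at an unadjusted p under 0.05; limma). The beta chains of the GM-CSF receptor, Csf2rb and its near-copy Csf2rb2, whose reads may be split uncertainly, had interactions of 0.35 and 0.32, and Csf1r, the receptor for M-CSF, 0.27. Csf2rb averaged 292 ± 3.78 FPKM after riebeckite asbestos and 244 ± 3.34 after riebeckite fragments, and in tremolite 245 ± 11.5 after asbestos and 262 ± 6.797 after fragments, against 130.1 ± 1.56 in untreated cells (SD, n = 3 each). Of 34 alveolar identity genes 5 had an interaction above 0 and 6 below, and 13 were lower and 7 higher after asbestos in riebeckite, against 4 lower and 2 higher in tremolite. Among all tested genes 2.65% had an interaction above 0 and 1.28% below. After asbestos 3.85% were lower and 6.71% higher in riebeckite, and 0.556% lower and 0.386% higher in tremolite. The 5 became 3 without riebeckite asbestos library 1, riebeckite fragment library 2 or tremolite fragment library 2. The transcription factors Bhlhe40 and Bhlhe41, which act together in alveolar macrophages, had interactions of opposite sign, -0.21 and 0.20. Ear2, an eosinophil-type ribonuclease of a family with near-identical members, was at 570.4 ± 19.4 FPKM after riebeckite asbestos and 820.1 ± 51.4 after riebeckite fragments, and in tremolite 701 ± 38.6 after asbestos and 745 ± 26.4 after fragments, against 758 ± 4.21 in untreated cells (interaction -0.43). Siglecf, the lectin that marks alveolar macrophages, showed a habit effect in tremolite (-0.47, adjusted p = 0.00604) and none called in riebeckite (-0.16), but the difference itself was not called (0.32; limma, adjusted p = 0.0932).

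**Figure D3:**
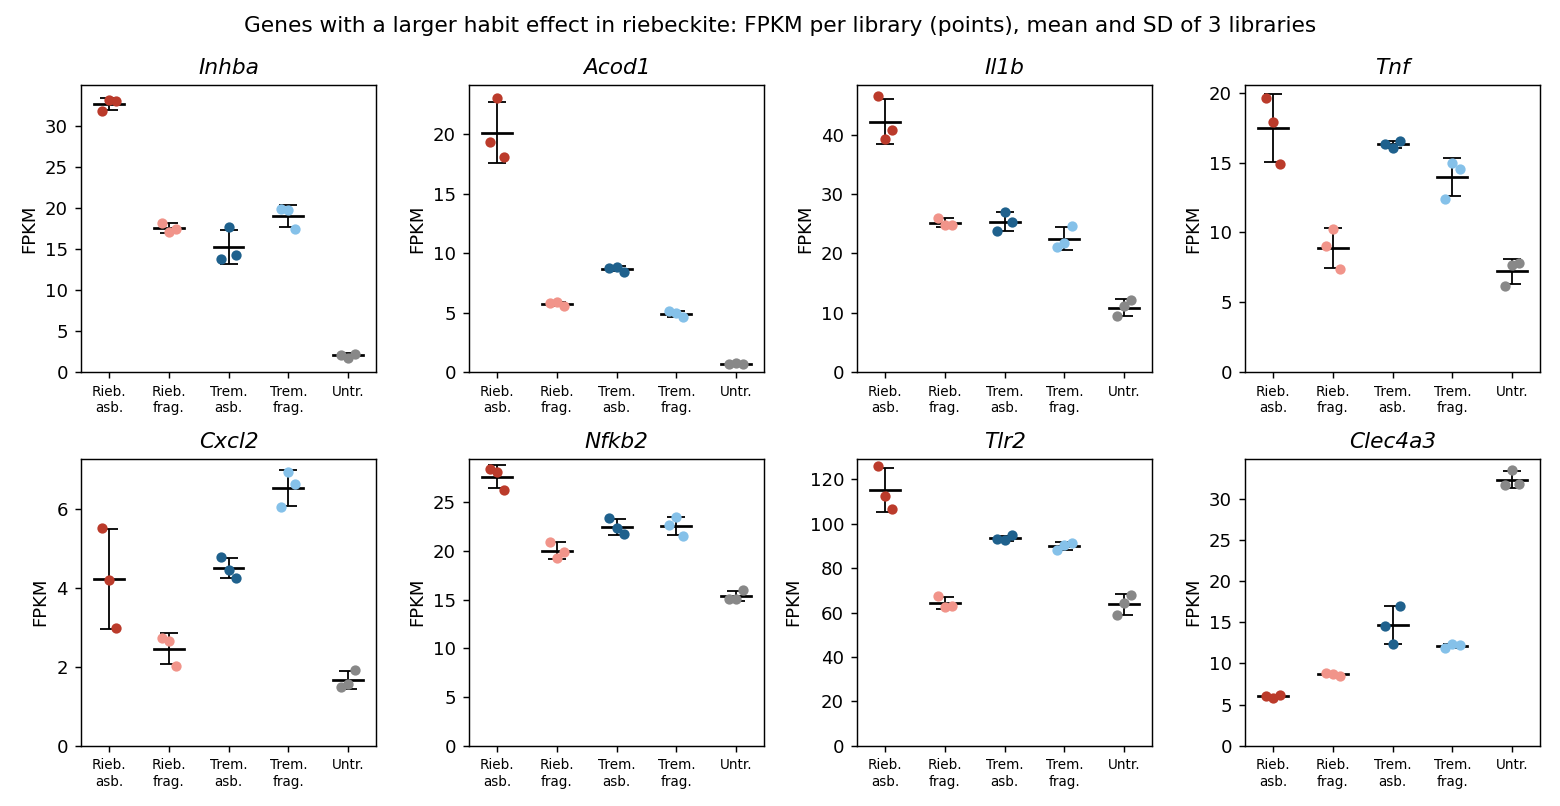
FPKM of 8 genes with a larger habit effect in riebeckite, with 1 point per library and the mean and SD of the 3 libraries of each group; asb. and frag. stand for asbestos and cleavage fragments. Riebeckite asbestos is the highest group for Inhba, Acod1, Il1b, Nfkb2 and Tlr2, overlaps tremolite asbestos for Tnf, and is the lowest for Clec4a3, while tremolite fragments are the highest for Cxcl2.

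Stress and metabolic lists also held members of the class. These were 4 of 27 genes of the Nrf2 pathway and glutathione metabolism, 2 of 23 immediate early genes and 3 of 30 glycolysis and hypoxia genes. Over all tested genes 3.03% were in the class, and 6.71% were higher after riebeckite asbestos than after riebeckite fragments. After tremolite asbestos 0.386% were higher than after tremolite fragments. The interaction was above 0 in 2.65% and below 0 in 1.28%. Of 27 genes of the Nrf2 pathway and glutathione metabolism 4 had an interaction above 0, the autophagy receptor Sqstm1 (0.51), the transcription factor Maff (0.58), the cystine transporter Slc7a11 (0.42) and Hmox1, described below, and 1 below, the glutathione reductase Gsr (-0.18). Gsr was not called when any one of 9 particle libraries was left out. Among immediate early genes 3 of 23 were above 0 and 0 below (11 and 2 at an unadjusted p under 0.05; limma), Junb having the largest value (0.66). The hexokinase Hk2 (0.37) and the lactate exporter Slc16a3 (0.39) were above 0 and Ndrg1, a gene induced by low oxygen, below 0 (-0.46) among 30 glycolysis and hypoxia genes (11 above and 1 below at an unadjusted p under 0.05; limma), of which 11 were higher after riebeckite asbestos and 0 after tremolite asbestos (1 at an unadjusted p under 0.05; limma). Slc16a3 was called in 9 of 26 settings and Ndrg1 in 18 of 25. Abca1, the cholesterol efflux pump, averaged 34.1 ± 2.88 FPKM after riebeckite asbestos and 27.6 ± 0.105 after riebeckite fragments, and in tremolite 19.98 ± 0.708 after asbestos and 20.6 ± 0.129 after fragments, against 11.9 ± 0.4997 in untreated cells (SD, n = 3 each; interaction 0.34). Slco4a1, an organic anion transporter, had 10.3, 6.68 and 7.69 FPKM after riebeckite asbestos and 2.94, 2.57 and 3.47 FPKM after riebeckite fragments. In tremolite it had 1.41, 1.44 and 0.993 FPKM after asbestos and 1.2, 1.15 and 1.02 FPKM after fragments, against 0.8901, 0.815 and 0.783 FPKM in untreated cells. Both tremolite groups lay at the lower end of the particle groups, little above the untreated level, and the interaction was 1.10 (SE 0.179; limma, adjusted p = 0.0057). That adjusted p was under 0.05 in 24 of 25 settings (limma, highest 0.487).

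Transcripts encoded by the mitochondrial genome were lower after riebeckite asbestos than after riebeckite fragments in 12 of 13 cases, and in tremolite 0 were called (1 lower at an unadjusted p under 0.05; limma). They made up 6.44 ± 0.419% of all FPKM after riebeckite asbestos and 7.91 ± 0.395% after riebeckite fragments, and in tremolite 8.15 ± 0.172% after asbestos and 8.42 ± 0.281% after fragments, against 8.65 ± 0.181% in untreated cells (SD, n = 3 each). Among all tested genes 3.85% were lower after asbestos in riebeckite and 0.556% in tremolite, and 1.28% had an interaction below 0. The interaction was called below 0 in 4 of the 13, mt-Atp6 (-0.40), mt-Atp8 (-0.38), mt-Co2 (-0.31) and mt-Nd4 (-0.30), with adjusted p from 0.0392 to 0.0498 (limma). That count was unsteady: it was 7 without riebeckite asbestos library 3, 8 without riebeckite fragment library 3 and 0 without any other single library except tremolite asbestos library 2, 0 in the fit of 12 libraries and without the mean-variance trend, and 1 after TMM rescaling. It was 2 after quantile normalization and with the replicate block, and 0 with sums of transcripts. The list's median interaction was -0.09 after quantile normalization and -0.28 as deposited, and the estimates nearest to 0 over all settings were -0.11 for mt-Co2 and -0.18 for mt-Atp6. The estimate for mt-Co2 rests on 1239, 1254 and 1366 FPKM after riebeckite asbestos and 1666, 1668 and 1509.8 FPKM after riebeckite fragments, and 1743, 1590.4 and 1734 FPKM after tremolite asbestos and 1778, 1608 and 1745 FPKM after tremolite fragments. The riebeckite groups did not overlap and the tremolite groups did. FPKM are relative within a library, and the part of the mitochondrial share in the other results was tested only by rescaling. With each library set to the same sum over nuclear genes, a setting added after the data were seen, 365 interactions were called, 260 above 0 and 105 below.

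Other genes with an interaction below 0 in the riebeckite-only class were the mitochondrial sodium and calcium exchanger Slc8b1 (-0.94, called in 16 of 26 settings), the profilin receptor Tlr11 (-0.69), the heparan sulfate-degrading enzyme Hpse (-0.68) and the guanylate-binding protein Gbp8 (-0.66), whose family shares sequence. Hpse averaged 3.49 ± 0.484 FPKM after riebeckite asbestos and 5.07 ± 0.132 after riebeckite fragments, and in tremolite 1.801 ± 0.213 after asbestos and 1.37 ± 0.02298 after fragments, against 1.65 ± 0.156 in untreated cells (SD, n = 3 each). Mean Hpse was thus higher after riebeckite particles of either habit than after tremolite particles. Fragments lay above asbestos in riebeckite and below it in tremolite. Tlr11 had 0.512 ± 0.132 FPKM after riebeckite asbestos and 0.996 ± 0.147 after riebeckite fragments, and in tremolite 1.596 ± 0.0373 after asbestos and 1.13 ± 0.0267 after fragments, against 3.15 ± 0.295 in untreated cells. The complement activator Cfp (-0.45), the MHC class II loading gene H2-DMa (-0.33), the fatty acid elongase Elovl6 (-0.51), the lysosomal acid lipase Lipa (-0.23) and the thioredoxin inhibitor Txnip (-0.43) were also below 0.

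A habit effect in tremolite only was found in 36 genes (0.339%), 20 with an interaction above 0, which here means lower after tremolite asbestos than after tremolite fragments, and 16 below. The riebeckite estimate had the opposite sign in 30 of them, and 5 passed an unadjusted p under 0.05 in riebeckite. The class held 11 and 8 genes without tremolite asbestos libraries 1 and 3, 7, 12 and 17 without tremolite fragment libraries 1, 2 and 3, and 15 in the fit of 12 libraries. Its members included the keratin Krt79, the heme-degrading enzyme Hmox1, the protein C receptor Procr and, in the other direction, cyclin D1 (Ccnd1) and the adhesion receptor Adgre4.

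Krt79 (ENSMUSG00000061397.7, chromosome 15, 101929332 to 101940324), a keratin that also marks alveolar macrophages in the mouse, was at 7.19, 6.55 and 6.76 FPKM after riebeckite asbestos and 6.33, 6.25 and 7.09 FPKM after riebeckite fragments. Its levels were 2.39, 3.07 and 3.02 FPKM after tremolite asbestos and 5.86, 5.85 and 5.56 FPKM after tremolite fragments, against 0.233, 0.261 and 0.272 FPKM in untreated cells. Asbestos and fragments overlapped in riebeckite and were far apart in tremolite, and every particle library was above untreated cells. The habit effect was 0.05 in riebeckite and -0.82 in tremolite, and the interaction was 0.88 (SE 0.0982, 95% confidence interval 0.66 to 1.09; limma, adjusted p = 0.00087). Hmox1 (ENSMUSG00000005413.8, chromosome 8, 75093621 to 75100589), the Nrf2 target that frees iron from heme, had 212, 195 and 201 FPKM after riebeckite asbestos and 190.2, 176 and 181 FPKM after riebeckite fragments. In tremolite it had 139, 134 and 124 FPKM after asbestos and 181, 179 and 168 FPKM after fragments, against 88.6, 84.2 and 81.97 FPKM in untreated cells. Tremolite asbestos had the lowest values of the particle groups, and the libraries of asbestos and fragments did not overlap in either mineral. The riebeckite habit effect of 0.15 missed the threshold (limma, adjusted p = 0.0664). The interaction was 0.57 (SE 0.0702; limma, adjusted p = 0.00142). Procr averaged 11.3 ± 0.387 FPKM after riebeckite asbestos and 10.4 ± 0.301 after riebeckite fragments, and in tremolite 4.54 ± 0.6799 after asbestos and 6.75 ± 0.188 after fragments, against 2.52 ± 0.1001 in untreated cells (SD, n = 3 each; interaction 0.60). The adjusted p of Procr was under 0.05 in 25 of 26 settings (limma, highest 0.2645). Trem1, a receptor that amplifies inflammatory signals, had 6.36 ± 0.901 FPKM after riebeckite asbestos and 6.04 ± 0.0985 after riebeckite fragments, and in tremolite 3.87 ± 0.0247 after asbestos and 5.599 ± 0.635 after fragments; its interaction of 0.49 was called in 8 of 26 settings. The tubulin carboxypeptidase gene Vash1 (0.66) and the chondroitin sulfotransferase gene Chst11 (0.51) complete those named above 0 by size. Cd1d1, which presents lipids to natural killer T cells (0.36), the transcription factor Fosl2 (0.34) and the inflammasome sensor gene Naip2 (0.22) had the same direction.

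Ccnd1 (ENSMUSG00000070348.5, chromosome 7, 144929931 to 144939925), which drives entry into the cell cycle, was at 2.604, 2.72 and 3.49 FPKM after riebeckite asbestos and 3.58, 3.48 and 3.36 FPKM after riebeckite fragments. It was at 7.05, 6.63 and 6.18 FPKM after tremolite asbestos and 4.22, 4.92 and 4.21 FPKM after tremolite fragments, against 12.1, 12.7 and 11.6 FPKM in untreated cells. All particle libraries lay below untreated ones, tremolite asbestos nearest to them, and the riebeckite groups overlapped at the lowest levels (interaction -0.68, SE 0.114, adjusted p = 0.00725 by limma). It was the only called gene of the 48 on the DNA replication list. Adgre4, an adhesion receptor of the F4/80 family, was near or below the 0.5 FPKM of the filter in riebeckite, with 0.489, 0.331 and 0.265 FPKM after asbestos and 0.538, 0.412 and 0.355 FPKM after fragments. In tremolite it had 2.87, 2.19 and 2.44 FPKM after asbestos and 1.16, 1.27 and 1.67 FPKM after fragments, against 5.48, 5.47 and 6.6 FPKM in untreated cells. Its interaction of -0.64 is on the log2(FPKM + 1) scale, which compresses the difference at such low levels, and it was called in 16 of 25 settings. S100a6, a calcium-binding protein, averaged 15.7 ± 0.527 FPKM after riebeckite asbestos and 16.6 ± 0.703 after riebeckite fragments, and in tremolite 23.6 ± 1.93 after asbestos and 18.1 ± 1.89 after fragments, against 29.2 ± 1.29 in untreated cells (SD, n = 3 each; interaction -0.45). The cell cycle inhibitor Cdkn1c (-0.47), the heparan sulfate sulfotransferase gene Hs3st3b1 (-0.46), the palmitoyltransferase gene Zdhhc2 (-0.40) and the lysosomal protease Lgmn (-0.21) were also below 0. Lgmn and the proton pump subunit Atp6v0a1 were 2 of the 4 lysosomal genes of 46 with an interaction below 0, beside the pump subunits Atp6v1b2 and Atp6v0d2 of the riebeckite-only class. Among all tested genes 1.28% had an interaction below 0. The 4 became 0 to 2 without any one library except riebeckite fragment library 3 and tremolite asbestos library 2.

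**Figure D4:**
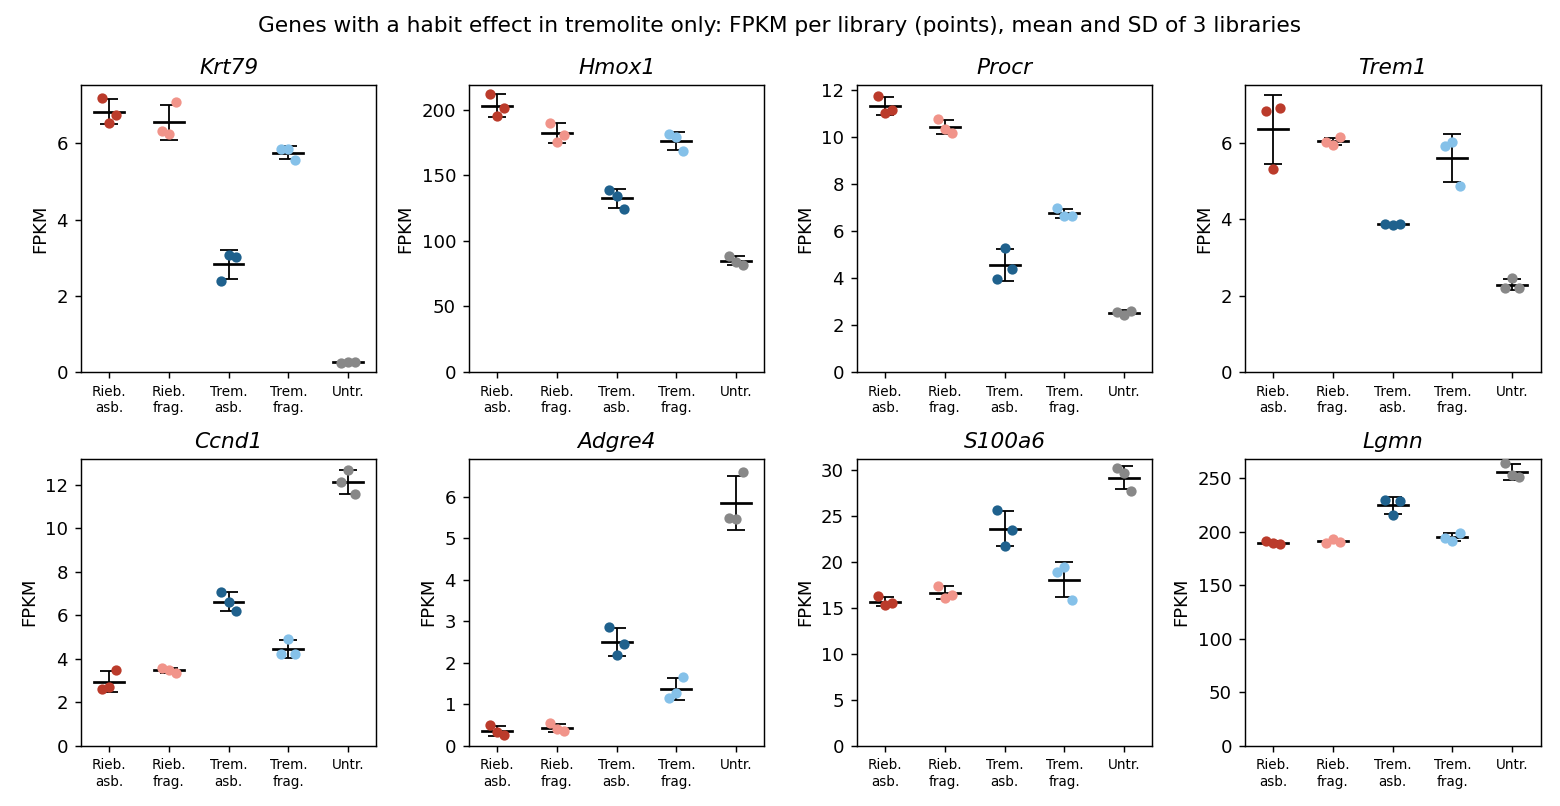
FPKM of 8 genes with a habit effect in tremolite only, with 1 point per library and the mean and SD of the 3 libraries of each group; asb. and frag. stand for asbestos and cleavage fragments. In the upper row tremolite asbestos lies below tremolite fragments, in the lower row above them, and the difference between the riebeckite groups is small beside it.

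Of the 24 genes with both habit effects called with the same sign, 2 had a called interaction, so that their effects differed in size. Acod1 (ENSMUSG00000022126.6, chromosome 14, 103046977 to 103056573), the enzyme that makes itaconate in activated macrophages, was at 19.3, 23.04 and 18.1 FPKM after riebeckite asbestos and 5.77, 5.904 and 5.57 FPKM after riebeckite fragments. It was at 8.79, 8.82 and 8.45 FPKM after tremolite asbestos and 5.12, 4.97 and 4.63 FPKM after tremolite fragments, against 0.671, 0.7896 and 0.669 FPKM in untreated cells. Asbestos gave the higher level in both minerals, by 1.64 in riebeckite and 0.71 in tremolite, with an interaction of 0.93 (SE 0.101; limma, adjusted p = 0.00087). The other was Dhrs3, a retinal reductase, lower after asbestos in both minerals (habit effects -0.40 in riebeckite and -0.19 in tremolite, interaction -0.21). H2-M2, of the non-classical MHC genes, had large habit effects in both minerals, 1.38 in riebeckite and 1.13 in tremolite, whose difference was not called (0.24, 95% confidence interval -0.000247 to 0.49; limma, adjusted p = 0.271). The matricellular cytokine gene Spp1 had 2381 ± 106 FPKM after riebeckite asbestos and 2821 ± 98.1 after riebeckite fragments, and in tremolite 1691 ± 49.5 after asbestos and 1956 ± 80.1 after fragments, and its interaction of -0.04 was not called as deposited.

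In the remaining 44 of the 417 genes the interaction was called while neither habit effect was, and in all 44 the estimates of both minerals had opposite signs. That follows largely from how the class is defined, since effects of the same sign differ by less than the larger of them. The 44 include Gdf15, a stress cytokine (0.37 in riebeckite, -0.40 in tremolite, interaction 0.77), the cytokine gene Osm (0.62) and the p53 targets Mdm2 (0.29) and Plk2 (0.45). Mdm2 was called in 9 of 26 settings. The largest interaction below 0, named after its values were seen, was that of Gbp9, an interferon-induced guanylate-binding protein of a family with shared sequence (-1.18, SE 0.297; limma, adjusted p = 0.0455). It was at 2.77, 3.56 and 1.598 FPKM after riebeckite asbestos and 2.85, 5.64 and 3.03 FPKM after riebeckite fragments, and 6.84, 7.57 and 9.05 FPKM after tremolite asbestos and 3.78, 4.16 and 4.39 FPKM after tremolite fragments, against 6.06, 6.03 and 6.89 FPKM in untreated cells. Within riebeckite, library 2 was the highest of each group for Gbp9 and for the summed interferon-stimulated genes, and asbestos library 3 the lowest asbestos library for both. How often Gbp9 was called over the alternative settings was not recorded. Gdf15 averaged 7.72 ± 0.895 FPKM after riebeckite asbestos and 5.79 ± 0.987 after riebeckite fragments, and in tremolite 5.096 ± 0.818 after asbestos and 7.06 ± 1.15 after fragments, against 3.102 ± 0.144 in untreated cells (SD, n = 3 each).

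For most genes of the interaction the untreated mean lay on 1 side of all 4 particle groups. Of the 281 with an interaction above 0, untreated cells had a lower mean than all 4 particle groups in 204 (72.6%), a higher one in 7 and an intermediate one in 70. Of the 136 below 0, untreated cells had a higher mean than all 4 groups in 100 (73.5%), a lower one in 6 and an intermediate one in 30. Over all tested genes untreated cells were below all 4 groups in 25.6% and above all 4 in 36.9%. In the opposite-sign class the same held for 8 of 9 genes above 0 and 4 of 4 below, Hmg20b being the exception, and in the tremolite-only class for 20 of 20 above 0 and 12 of 16 below.

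Other gene groups gave few or no calls. The shares over all tested genes apply to the counts here and in the next paragraph. The interaction was above 0 in 2.65% and below 0 in 1.28%. After asbestos 6.71% were higher and 3.85% lower in riebeckite, and 0.386% higher and 0.556% lower in tremolite. For cytosolic ribosomal proteins the interaction was called in 0 of 71 (0 above and 15 below at an unadjusted p under 0.05; limma), with a median of -0.12, and 7 of the 71 estimates were above 0. The 0 below became 5 without tremolite asbestos library 2, 2 without riebeckite fragment library 3 and 1 without tremolite fragment library 1. For ribosome biogenesis it was called in 0 of 48 (6 above and 0 below at an unadjusted p under 0.05; limma), although 8 members were higher after riebeckite asbestos. Of 26 cholesterol synthesis and uptake genes 1 was called, Acat2 (0.40), and of 53 nuclear respiratory chain genes 1, Cyc1 (0.41). The constitutive proteasome had 9 of 31 subunits higher after riebeckite asbestos and 0 after tremolite asbestos (2 at an unadjusted p under 0.05; limma), yet the difference was called for Psmd2 alone (0.19, called in 12 of 26 settings). Interferon-stimulated genes had 0 of 40 called interactions (0 above and 2 below at an unadjusted p under 0.05; limma) despite a median of -0.37, from median habit effects of 0.25 in riebeckite and 0.63 in tremolite. Neither habit effect was called in any of the 40, and at an unadjusted p under 0.05 asbestos was above fragments in 0 in riebeckite and in 21 in tremolite (limma). That median was -0.02 without riebeckite asbestos library 3, -0.01 without riebeckite fragment library 2 and -0.68 without riebeckite asbestos library 2, which are the libraries that lie at the ends of the summed levels given above.

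Inflammasome genes split evenly, with Il1a, Il1b and Naip2 above 0 and Il18, the initiator caspase Casp8 (-0.18) and Txnip below, of 19. The 3 below became 1 in the fit of 12 libraries and without riebeckite asbestos library 1, riebeckite fragment library 2, tremolite asbestos library 1 or 3 or any tremolite fragment library. Of 21 genes of the amino acid response 3 were above 0 and 0 below (9 and 0 at an unadjusted p under 0.05; limma), Slc7a11, Gdf15 and the mitochondrial serine enzyme Shmt2 (0.39), and 7 were higher after riebeckite asbestos. The 3 became 6 without riebeckite fragment library 1 and 1 with sums of transcripts. Shmt2 averaged 12.7 ± 0.764 FPKM after riebeckite asbestos and 9.68 ± 0.269 after riebeckite fragments, and in tremolite 11.2 ± 0.467 after asbestos and 11.5 ± 0.836 after fragments, against 12.8 ± 0.553 in untreated cells (SD, n = 3 each). The alanyl-tRNA synthetase Aars (0.34) was the called member of 20 aminoacyl-tRNA synthetases, and the stress transcription factor Xbp1 (-0.22) that of 32 genes of the unfolded protein and heat shock responses. By adjusted p alone, without the size requirement of 1 setting, Aars passed in 26 of 26 settings and Xbp1 in 9 of 26. Among 18 iron-handling genes Hmox1 and the phagosomal metal transporter Slc11a1, also called Nramp1 (0.47), were above 0. Slc11a1 had 8.02 ± 0.809 FPKM after riebeckite asbestos and 5.097 ± 0.288 after riebeckite fragments, and in tremolite 3.54 ± 0.263 after asbestos and 3.27 ± 0.145 after fragments, against 1.79 ± 0.158 in untreated cells. Of 11 metallothioneins and zinc transporters 0 were called (3 above and 0 below at an unadjusted p under 0.05; limma). The p53 and apoptosis list of 35 had 3 above 0, Mdm2, Plk2 and Plk3 (0.56), and 0 below (7 and 0 at an unadjusted p under 0.05; limma). That 3 became 1 after quantile normalization and in the fit of 12 libraries, 0 with sums of transcripts, and 0 or 1 without any one particle library except riebeckite asbestos library 3 and riebeckite fragment library 1. Of 57 mitosis genes 1 was called, the kinetochore subunit Ndc80 (-0.37, called in 13 of 26 settings), and 6 were lower after riebeckite asbestos. The lysosomal sialidase Neu1 (0.24) was the 1 lysosomal gene above 0. Cd1d1 was above 0 and H2-DMa below among 23 antigen presentation genes, Tgm2 above and Mrc1 below among 12 genes of alternative activation, and Abca1 above and Fabp4 and Lipa below among 21 genes of lipid efflux and handling. The complement list of 15 had 2 members below 0, Cfp among them, and 0 above (5 and 3 at an unadjusted p under 0.05; limma), and the fatty acid synthesis list of 22 had Elovl6 below and 0 above (4 and 4 at an unadjusted p under 0.05; limma).

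**Figure D5:**
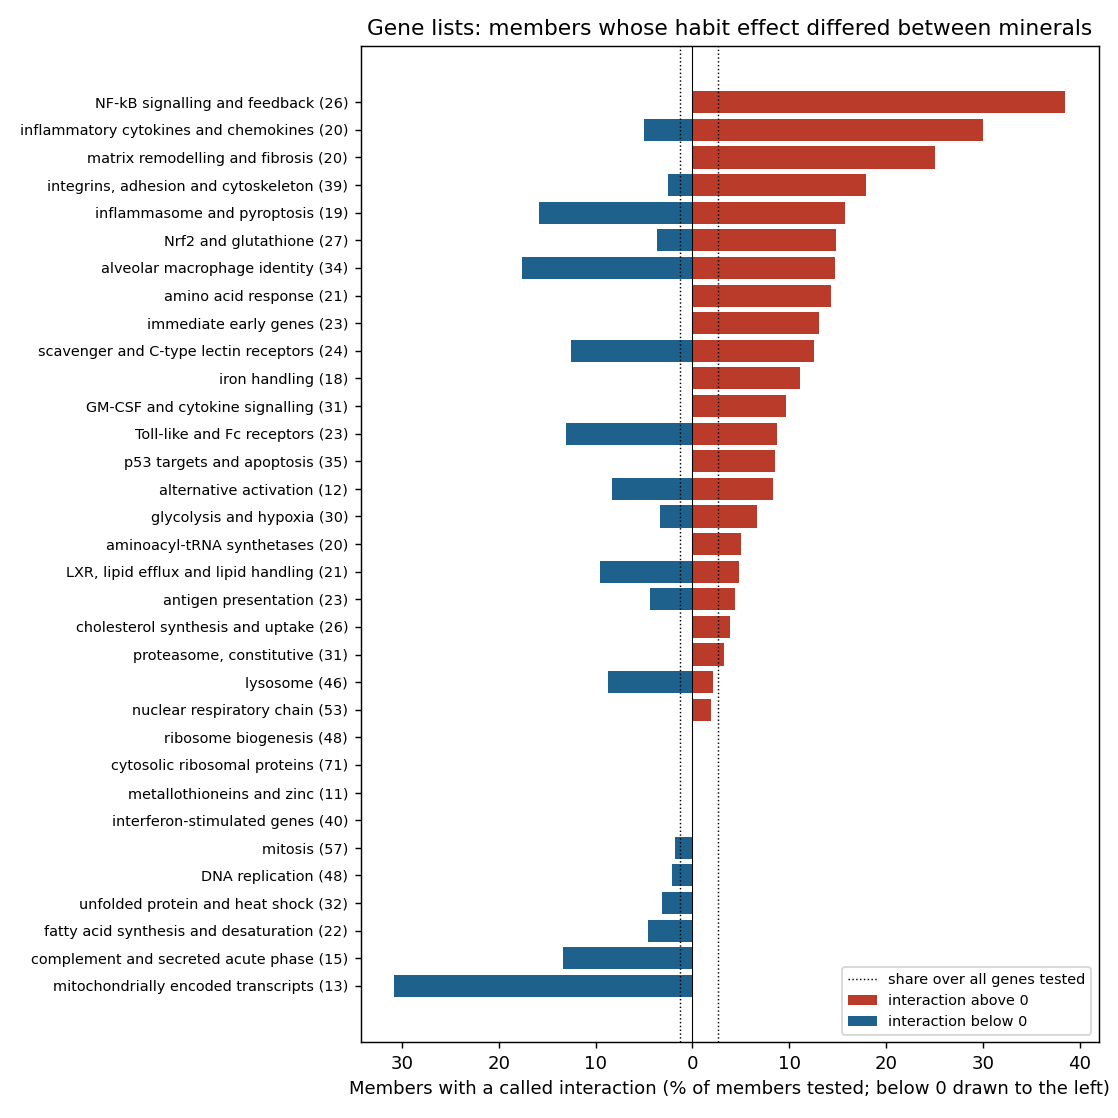
Share of tested members with a called interaction in 33 function lists, above 0 to the right and below 0 to the left, in percent of members, with the number tested in brackets. Dotted lines mark the shares over all tested genes, 2.65% above 0 and 1.28% below; NF-kB genes reach 38.5% above 0 and mitochondrially encoded transcripts 30.8% below, a count that fell to 0 without most single libraries.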

How the data were processed

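Poly(A) RNA of MPI cells was sequenced in 15 libraries, and gene and transcript levels were deposited as FPKM by the authors. Cutadapt, HISAT2, StringTie and the GRCm38 build are named, per the submitters' processing notes, without versions. Counts were not used here, so the depth of each library is unknown and a test on log values replaced one on counts. FPKM + 1 was taken to log2, genes of at least 0.5 FPKM in at least 3 libraries were kept, and all 15 libraries entered 1 limma fit (version 3.58.1, R 4.3.3) with a mean-variance trend. The interaction and both habit effects were contrasts of that fit, with Benjamini-Hochberg adjustment over 10616 genes and a threshold of 0.05. The fit was also run on simulated data. The pseudocount understates changes of genes with low levels. Gene positions are those of the deposited files and the promoters are RefSeq's (GRCm38.p6). Figures were drawn with matplotlib 3.10.9 under Python 3.11.15.

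Genes have an opposite-sign, riebeckite-only, tremolite-only or same-sign habit effect only where the interaction passed. The 33 function and 9 marker lists, the comparison and the rule for named genes were chosen with earlier results of these data known. That rule took, per class and sign, the 6 largest interactions (4 for same-sign genes) among genes whose highest particle group averaged at least 1 FPKM and whose libraries did not overlap for a called habit effect, leaving out predicted and clone symbols, up to 3 genes per list by interaction p, and 12 fixed genes, among them Il1a, Il1b, Tnf, Cxcl2, Hmox1, Acod1, H2-M2, Inhba, Spp1 and Abca1. A few genes that the rule names are not reported here. Genes beyond it were named after their values were seen: Angptl4, Cyb561a3, Sephs2, Gbp9, Atp6v0a1, Atp6v0d2, Bhlhe40, Bhlhe41, Casp8, Cd14, Ear2, Fcgrt, Gsr, Ikbke, Il18, Itga4, Map3k8, Mmp12, Mmp19, mt-Nd4, Nfkbia, Nfkbib, Nfkbie, Olr1, Osm, Pdpn, Rela, Siglecf, Sod2, Tnfaip3 and Zc3h12a. No pair of libraries was identical (0 pairs). Alternatives were TMM and quantile scaling, pseudocount 0.1, no filter, a mean of at least 5 FPKM, a replicate block, the 12 particle libraries alone, no trend, an absolute log2 value of at least 0.5, sums of transcripts and each library left out. TMM here was a plain trimmed mean of log2 FPKM ratios to the geometric mean of all libraries, with 30% cut at each end. It used no weights and no trimming by level, unlike the usual method of that name.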

Additional observations from a re-analysis of the deposited data

Results flagged for a closer look

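The habit effects of riebeckite and tremolite differed beyond the test's threshold (limma interaction, asbestos minus fragments in riebeckite minus that in tremolite, adjusted p under 0.05) for each of the 87 genes below, given with the interaction in log2(FPKM + 1). Genes of opposite sign with riebeckite asbestos the higher and tremolite asbestos the lower one of its mineral were Tgfbi (0.95), Arap3 (0.71), Icosl (0.69), Fbxo32 (0.59), Hmg20b (0.50), Cyb561a3 (0.48), Angptl4 (0.31) and Sephs2 (0.29). The reverse order was seen for Nov (-0.65), Fabp4 (-0.58) and Serp1 (-0.39). With a habit effect called in riebeckite only, the values above 0 were led by Inhba (1.17), Slco4a1 (1.10), Cxcl2 (1.03), Gpr84 (1.00), Tnfrsf12a (0.85), Fcrlb (0.84), Tlr2 (0.77), Tnf (0.69), Tgm2 (0.67), Junb (0.66), Maff (0.58), Plk3 (0.56), Il1b (0.55), Sqstm1 (0.51), Icam1 (0.50), Slc11a1 (0.47) and Nfkb2 (0.45). Smaller values above 0 in that class belonged to Ccl3 (0.43), Nfkbiz (0.42), Slc7a11 (0.42), Cyc1 (0.41), Acat2 (0.40), Shmt2 (0.39), Slc16a3 (0.39), Hk2 (0.37), Itga5 (0.36), Csf2rb (0.35), Colec12 (0.35), Aars (0.34), Abca1 (0.34), Csf2rb2 (0.32), Il1a (0.32), Csf1r (0.27), Neu1 (0.24) and Psmd2 (0.19). Below 0 they were Slc8b1 (-0.94), Clec4a3 (-0.71), Tlr11 (-0.69), Hpse (-0.68), Gbp8 (-0.66), Cd180 (-0.65), Elovl6 (-0.51), Ndrg1 (-0.46), Cfp (-0.45), Txnip (-0.43), mt-Atp6 (-0.40), Mrc1 (-0.39), mt-Atp8 (-0.38), Ndc80 (-0.37), H2-DMa (-0.33), mt-Co2 (-0.31), Tlr13 (-0.30), Lipa (-0.23), Atp6v1b2 (-0.22) and Xbp1 (-0.22). In the tremolite-only class the values above 0 were Krt79 (0.88), Vash1 (0.66), Procr (0.60), Hmox1 (0.57), Chst11 (0.51), Trem1 (0.49), Cd1d1 (0.36), Fosl2 (0.34) and Naip2 (0.22). Those below 0 were Ccnd1 (-0.68), Adgre4 (-0.64), Cdkn1c (-0.47), Hs3st3b1 (-0.46), S100a6 (-0.45), Zdhhc2 (-0.40) and Lgmn (-0.21). Both habit effects had the same sign for Acod1 (0.93) and Dhrs3 (-0.21). Neither habit effect was called for Gdf15 (0.77), Plk2 (0.45) and Mdm2 (0.29). Groups of 3 libraries are too small for a test of single outlying libraries.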

How the results depend on the processing

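All 417 genes kept the direction of the interaction in every setting tried in which they were tested, except with sums of transcripts, where 406 of 416 did. Counts over all genes moved by over 1.5 times in 3 settings beside single libraries; counts in lists of genes moved in more, as given with them. Of 23 list counts of 1 or 2 members 18 moved by over 1.5 times without at least 1 library. With only the 12 particle libraries, tremolite habit was called in 64 genes and tremolite only in 15. With an absolute log2 value of at least 0.5, 90 genes had an interaction (63 above and 27 below 0), 65 a habit effect in riebeckite and 16 in tremolite, 62 in riebeckite only and 8 in tremolite only, which follows from the added requirement. With sums of transcripts these were 198, 133, 65, 657 and 43, with 163 in riebeckite only, 13 in tremolite only and 3 of opposite sign, and the cause was not tested. Leaving out single libraries gave 210 to 425 interactions (136 to 285 above and 70 to 140 below 0), 644 to 1101 habit effects in riebeckite and 31 to 110 in tremolite, 3 to 15 genes of opposite sign, 160 to 319 in riebeckite only and 7 to 34 in tremolite only, with fewer samples in each such fit. Requiring an unadjusted p of 0.05 or more in the other mineral left 231 genes in riebeckite only and 31 in tremolite only. The interaction was called in 392 genes after TMM and 371 after quantile scaling, 365 after rescaling to nuclear genes, 399 with pseudocount 0.1, 421 with no filter, 425 at a mean of at least 5 FPKM and 345 with no trend. TMM moved the median interaction of all genes to 0.00064, beside 0.0336 as deposited. Whether replicate numbers pair the libraries is not given in the labels. Of 30 same-number correlations 3 were above 0.1 (range -0.0613 to 0.172), and 8 of 15 libraries correlated best with their own number. Riebeckite asbestos and riebeckite fragments gave 0.172 for number 2 and 0.101 for number 3. A replicate block gave 416 interactions (279 above and 137 below 0), 359 of them shared, with 11 genes of opposite sign, 330 in riebeckite only and 25 in tremolite only. With that block 1191 genes had a habit effect in riebeckite and 99 in tremolite. Of the 90 named genes with a called interaction 53 kept an adjusted p under 0.05 (limma) in all settings and 37 in fewer. The lowest were 8 of 26 for Trem1 and 8 of 25 for Zdhhc2. These counts leave aside the size requirement of the setting with an absolute log2 value of at least 0.5. Direction turned for Spp1, whose interaction was 0.21 after quantile scaling (limma, adjusted p = 0.0232, and 0.0232 to 0.978 over all its settings), and, with sums of transcripts, for the riebeckite effects of Plk3 (-0.063) and Slc11a1 (-0.23), the interaction of Angptl4 (-0.28) and its tremolite effect (0.30). The cause was not tested.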
